A study of Homo sapiens with 8 samples.

Results

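The human miRNAs from miR-1200 to miR-1999 on a miRNA array were described in PC-3 cells treated with luteolin, gefitinib or both drugs. Members were taken by name alone, as every human miRNA on the array whose number falls in that range, with any letter or arm, and 138 of the 1887 human miRNAs on the array met this rule. They fell into 3 classes. The mirtron block held 16 members from miR-1224 to miR-1238, the structured-RNA class held 8 members whose sequences match or overlap other structured RNAs, and the remaining 114 are called other members.

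PC-3 is an established, androgen-independent human prostate cancer cell line. All cultures received the solvent DMSO. The DMSO group received nothing else, the luteolin group received 60 µM luteolin (a plant flavone), the gefitinib group received 60 µM gefitinib (which blocks the tyrosine kinase of EGFR), and the luteolin plus gefitinib group received 60 µM of each. Total RNA was taken after 24 h and hybridised as a single-colour sample, with 2 arrays in each of the 4 groups. Per the file headers the 8 arrays lay on 1 slide with each group in a column of its own, so group and column cannot be told apart. The labels call the arrays of a group biological replicates while the design text says that samples were run in duplicate, so the p-values measure the spread between these arrays, which may be technical. Equal amounts of RNA from whole cultures were labelled, and a change in some of the cells cannot be told apart from a smaller change in all of them. The comparisons ask how each drug, alone and on top of the other, altered the miRNAs of these cells.

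Most miRNAs are cut from a primary transcript by the nuclear Microprocessor (Drosha with DGCR8), trimmed by Dicer in the cytoplasm and loaded onto an Argonaute protein, where the seed at bases 2 to 8 chooses the targets. A canonical mirtron bypasses Drosha, because its hairpin is a short intron that is released by splicing and debranching. Whether each member of the mirtron block is made in this way was not tested here. Other small RNAs carry miRNA names although they match pieces of tRNAs, small nuclear RNAs, snoRNAs or mitochondrial rRNA, and such fragments may arise without the miRNA enzymes.

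The structured-RNA members whose results are described below are shown first, with bases 2 to 8 in capitals. Sequences and positions are those of RefSeq on GRCh38.p14, which held 99 of the 138 members under the same name and 29 of the 37 members detected on at least 1 array. No sequence is shown for miR-1280_v18.0, whose suffix is part of its name on the array.
miR-1260a: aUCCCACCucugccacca
miR-1260b: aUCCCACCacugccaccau
miR-1246: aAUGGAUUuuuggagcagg
miR-1290: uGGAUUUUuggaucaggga
miR-1973: aCCGUGCAaagguagcaua

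miR-1260a and miR-1260b, which match the 3′ end of a leucine tRNA, differed at 1 of 18 aligned bases (U9A, counted from the 5′ end with the base of miR-1260a first) and shared the seed UCCCACC. miR-1260a ends in CCA, the ending that mature tRNAs carry. miR-1246 and miR-1290, which match the U2 small nuclear RNA, had 12 bases in common (UGGAUUUUUGGA, from base 3 of miR-1246 and base 1 of miR-1290), so that their seeds overlap within this stretch at different offsets. miR-1260a lay at chr14:77266231-77266248 on the plus strand, within the span of NGB (neuroglobin), and miR-1260b at chr11:96341447-96341465 on the plus strand, within the span of MAML2 (a Notch coactivator). miR-1290 lay at chr1:18897078-18897096 on the minus strand, within the span of ALDH4A1 (a mitochondrial enzyme of proline breakdown). miR-1246 lay at chr2:176601024-176601042 on the minus strand with no other gene of the table over it, and miR-1973 at chr4:116299750-116299768 on the plus strand, within MTRNR2L13, a nuclear copy of mitochondrial rRNA sequence.

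The mirtron-block members detected on both arrays of a group, except miR-1234-3p, are shown next, since their products lie at the ends of introns.
miR-1224-5p: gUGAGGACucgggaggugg
miR-1225-5p: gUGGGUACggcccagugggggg
miR-1226-5p: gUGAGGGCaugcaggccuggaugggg
miR-1228-3p: uCACACCUgccucgcccccc

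Of the 12 hairpins of the block in RefSeq, 12 began with GU and ended with AG, the ends of a spliced intron, against 0 of the 73 hairpins of the remaining members and 36 of 1562 human hairpins (2.30%). The block was chosen by annotation as mirtrons, so these ends follow from that choice and are a description. The hairpins of miR-1226 and miR-1228 are given with these ends in capitals.
MIR1226: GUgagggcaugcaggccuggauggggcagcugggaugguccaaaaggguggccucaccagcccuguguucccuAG
MIR1228: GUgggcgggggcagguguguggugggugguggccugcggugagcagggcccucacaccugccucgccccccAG

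miR-1226-5p began at base 1 of its hairpin of 75 bases (chr3:47849555-47849629, plus strand, within DHX30, an RNA helicase gene), and miR-1224-5p and miR-1225-5p also began at base 1 of theirs. miR-1228-3p began at base 52 of its 73-base hairpin (chr12:57194504-57194576, plus strand, within LRP1, a lipoprotein receptor gene) and stopped 2 bases before its end. miR-1225-5p lay at chr16:2090263-2090284 on the minus strand within PKD1, the polycystin-1 gene, and miR-1224-5p at chr3:184241405-184241423 on the plus strand within VWA5B2.

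Of the other members, those called in a comparison and the pair that shares a seed are shown.
miR-1915-3p: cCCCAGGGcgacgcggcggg
miR-1469: cUCGGCGCggggcgcgggcucc
miR-1268a: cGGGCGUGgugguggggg
miR-1268b: cGGGCGUGguggugggggug

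miR-1915-3p lay at chr10:21496576-21496595 on the minus strand in its host transcript MIR1915HG. miR-1469 lay at chr15:96333261-96333282 on the plus strand within NR2F2, which encodes the nuclear receptor COUP-TFII. The 18 bases of miR-1268a (chr15:22225308-22225325, minus strand) are the first 18 of miR-1268b (chr17:80098831-80098850, plus strand, within CCDC40). The G and C share was 90.0% in miR-1915-3p and 90.9% in miR-1469, against 42.1% in both miR-1246 and miR-1290.

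Between 395 and 481 of the 1887 human miRNAs were detected per array. Among the 365 detected throughout, the 75th percentile of the total signal was 60.5 to 92.7 on the different arrays before scaling. Luteolin plus gefitinib replicate 2 had the lowest of both values. The PC-3 markers miR-21-5p (scaled signal 3401 to 4731), miR-221-3p (324 to 504) and miR-222-3p (264 to 369) were detected on all 8 arrays. Of 13 markers of hepatocytes, blood cells, muscle, stroma and neurons, miR-9-5p was detected on 8 arrays (7.58 to 14.9), miR-142-3p on 1, and the rest on none.

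Most members of the group were not seen in these cells. Of the 138, 24 were detected on all 8 arrays, 13 on some arrays and 101 on none. A detected miRNA is one that the scanner software marked as such. On a single array 26 to 35 members were detected, which was 18.8% to 25.4% of them, against 21.1% to 25.6% of the other human miRNAs on the same arrays. A miRNA entered the test when both arrays of some group detected it. In the structured-RNA class 6 of 8 members (75%) did so, against 5 of 16 (31.2%) in the mirtron block, 22 of 114 (19.3%) among the other members and 447 of 1749 (25.6%) among the other human miRNAs. The classes were chosen with earlier results known, and these shares are descriptions with no test.

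The 6 tested members of the structured-RNA class (miR-1246, miR-1260a, miR-1260b, miR-1280_v18.0, miR-1290 and miR-1973) were all detected on all 8 arrays. Of the remainder, miR-1248, which overlaps an H/ACA snoRNA, was detected on none and miR-1291, which lies within SNORA2C, on 4. In the mirtron block miR-1224-5p, miR-1225-5p, miR-1228-3p and miR-1234-3p were detected on all 8 arrays, miR-1226-5p on 2 arrays of a single group and miR-1238-3p on 2 arrays of different groups. Not detected on any array were miR-1224-3p, miR-1225-3p, miR-1226-3p, miR-1227-3p, miR-1228-5p, miR-1229-3p, miR-1231, miR-1233-3p, miR-1236-3p and miR-1237-3p. By arm, 3 of 4 5p products and 3 of 11 3p products of the block were detected on at least 1 array. For miR-1224, miR-1225, miR-1226 and miR-1228 both arms are on the array, and in each case only the arm named above was detected.

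Detected members were rich in G and C. The median share was 70.0% in the 25 tested members with a sequence and 52.3% in the 70 detected on no array, against 54.2% and 47.6% in the other human miRNAs. GGGG was present in 32.0% of the tested members and 5.71% of those detected on no array, against 17.6% and 6.23% in the other human miRNAs and 9.26% in all of these with a sequence. The tested members had a median of 72.1% in the mirtron block and 71.0% among the other members, but 47.4% in the structured-RNA class, none of whose 7 sequences held GGGG. Neither composition nor length was a basis of the rule that chose the members.

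**Figure D1:**
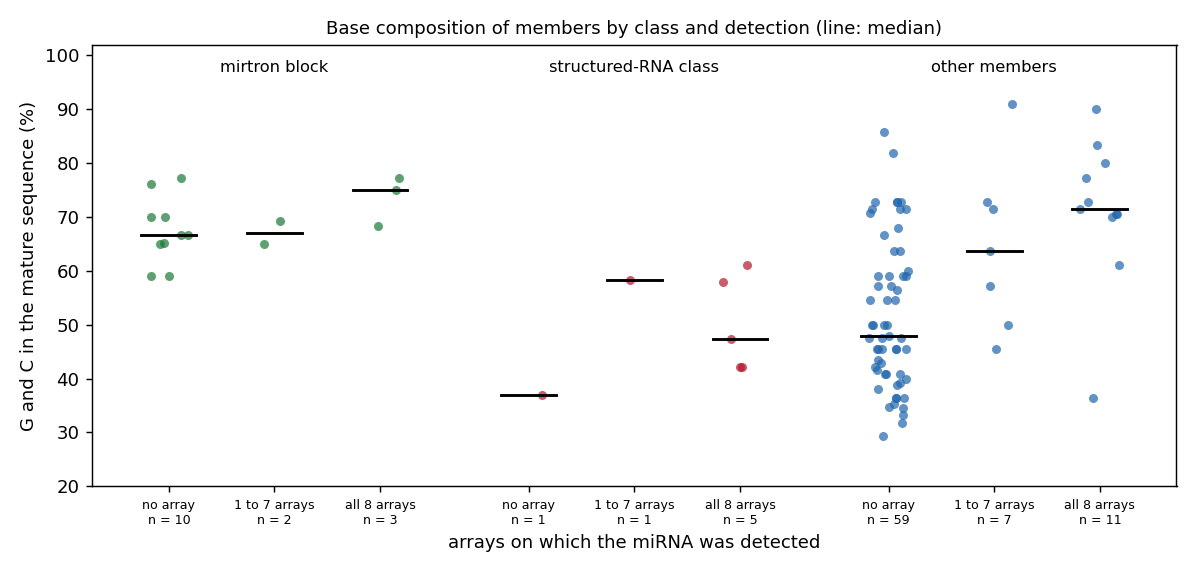
Share of G and C in the mature sequence (%, vertical axis) of the 99 members with a RefSeq sequence, by class and by the number of arrays on which each was detected; each point is 1 miRNA and the line is the median. Among the other members the 59 detected on no array had a median of 47.8%, and those detected on all 8 arrays lie mostly at 60% or above.

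Luteolin alone changed no member past the test. With limma, 0 of 33 members had an adjusted p under 0.05, beside 2.08% of the 480 miRNAs tested. An unadjusted p under 0.05 by limma was found for 1 member, beside 41 of the 480. The methods' t-test gave 0 members both at its own thresholds and after adjustment, with 13 and 0 among all miRNAs. That member was miR-1290, which read 9.77 and 8.62 on the DMSO arrays and 7.24 and 5.67 on the luteolin arrays (scaled total signal, the unit of all signals below). Its luteolin arrays lay below its DMSO arrays, and the log2 difference was -0.52 (SE 0.17, adjusted p = 0.401 by limma). The median log2 difference over the members detected on all 8 arrays was -0.11, close to the -0.09 over all 365 such miRNAs.

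With gefitinib, 3 members of the structured-RNA class grouped with tRNA fell and miR-1915-3p rose. They were 4 of the 24 members detected on all arrays, called by limma beside 9.59% of the 365 such miRNAs. The same fit called 5 of all 33 tested members, beside 12.1% of all miRNAs tested, but the remaining call, miR-1469, entered the test only through the gefitinib arrays and says no more than its detection there. None of the 4 mirtron-block members detected on all arrays was called.

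miR-1260a read 4721 and 5315 on the DMSO arrays, 4477 and 4949 with luteolin, 3232 and 3168 with gefitinib and 3691 and 4298 with both drugs. The gefitinib arrays were the lowest of the 8, and the arrays with both drugs lay between them and the DMSO arrays without overlap. Its log2 difference was -0.65 with gefitinib (SE 0.15, adjusted p = 0.0489 by limma) and -0.33 with both drugs (adjusted p = 0.239).

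miR-1260b read 1852 and 2010 with DMSO, 1634 and 1814 with luteolin, 1206 and 1175 with gefitinib and 1333 and 1480 with both drugs. The order of the groups was that of miR-1260a. Its log2 difference was -0.70 with gefitinib (SE 0.14, adjusted p = 0.0331 by limma) and -0.46 with both drugs (adjusted p = 0.0969). The log2 ratio of miR-1260a to miR-1260b had an SD of 0.05 over the 8 arrays, and since their sequences differ at a single aligned base they may share signal on the array, so they do not count as independent measurements.

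miR-1280_v18.0, grouped with the tRNA-matched members, read 433 and 460 with DMSO, 455 and 444 with luteolin, 259 and 294 with gefitinib and 350 and 391 with both drugs. The DMSO and luteolin arrays overlapped and the gefitinib arrays lay below all others. Its log2 difference with gefitinib was -0.70 (SE 0.14, adjusted p = 0.0341 by limma). Its sequence was not compared with those of miR-1260a and miR-1260b. Whether it shares signal with them on the array was not tested, so it is not shown to be independent of them.

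The calls of miR-1260a, miR-1260b and miR-1280_v18.0 kept their direction in each of 22 alternatives but were close to the threshold. Each was lost when either DMSO, either gefitinib or either luteolin plus gefitinib array was left out (adjusted p over all alternatives 0.0038 to 0.611, 0.0038 to 0.834 and 0.0129 to 0.517), and the count of members called with gefitinib was then 1, with 15 to 29 called among all miRNAs. Each was also lost without scaling, under quantile normalization, with no filter and by the methods' t-test after adjustment. The same held on the mean processed signal with its percentile over all miRNAs. The calls of miR-1260a and miR-1280_v18.0 were lost with the compared groups alone in the fit (adjusted p = 0.0604 for each by limma), and that of miR-1280_v18.0 on the mean processed signal (adjusted p = 0.0704). Without scaling between arrays the log2 differences with gefitinib were -0.28, -0.33 and -0.33, none of them past the test.

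miR-1915-3p rose with gefitinib. It read 67.4 and 69.4 with DMSO, 90.8 and 78.5 with luteolin, 106 and 107 with gefitinib and 110 and 128 with both drugs. No drug array overlapped the DMSO arrays, and the arrays with gefitinib, alone or with luteolin, lay above both luteolin arrays. The log2 difference was 0.30 with luteolin (adjusted p = 0.649 by limma), 0.63 with gefitinib (SE 0.15, adjusted p = 0.0499) and 0.79 with both drugs (SE 0.15, adjusted p = 0.0265). The direction held in all 22 alternatives of either call. The gefitinib call was lost without either DMSO, either gefitinib or either luteolin plus gefitinib array (adjusted p over alternatives 0.0061 to 0.199), with the replicate block (adjusted p = 0.0603), under quantile normalization, on the series table, with no filter and with miRNAs detected on all arrays alone. The call with both drugs was lost in 5 of the 8 fits that left out 1 array, the exceptions being the luteolin arrays and luteolin plus gefitinib replicate 1 (0.0044 to 0.208 over all alternatives). It was also lost without scaling (adjusted p = 0.101 by limma), under quantile normalization (0.208), with no filter (0.101), with the compared groups alone in the fit (0.0874) and by the methods' t-test after adjustment (0.192).

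miR-1469 was detected on the gefitinib arrays alone, at 1.28 and 1.31, and on none of the other 6. Undetected arrays share the floor and have no spread, so the fit of such a member is a description with no error of its own. The mean processed signal, which the software gives whether or not a miRNA is detected, was 1.58 and 1.71 with gefitinib, 0.455 and 0.415 with DMSO, 0.690 and 0.267 with luteolin, and 1.38 and 0.472 with both drugs. The gefitinib arrays were the highest on that scale, but luteolin plus gefitinib replicate 1 lay close to them. The fit on that scale raised values below 1.17 to that floor and did not call the difference from DMSO (adjusted p = 0.0882 by limma). The call was lost under 6 of 20 alternatives, among them a floor of 1 and every one that used another signal. The total signal on the gefitinib arrays was 3.33 and 3.43 times the error given by the scanner software, against 10.5 to 14.1 times for miR-1260a, miR-1260b, miR-1280_v18.0 and miR-1915-3p over all arrays.

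**Figure D2:**
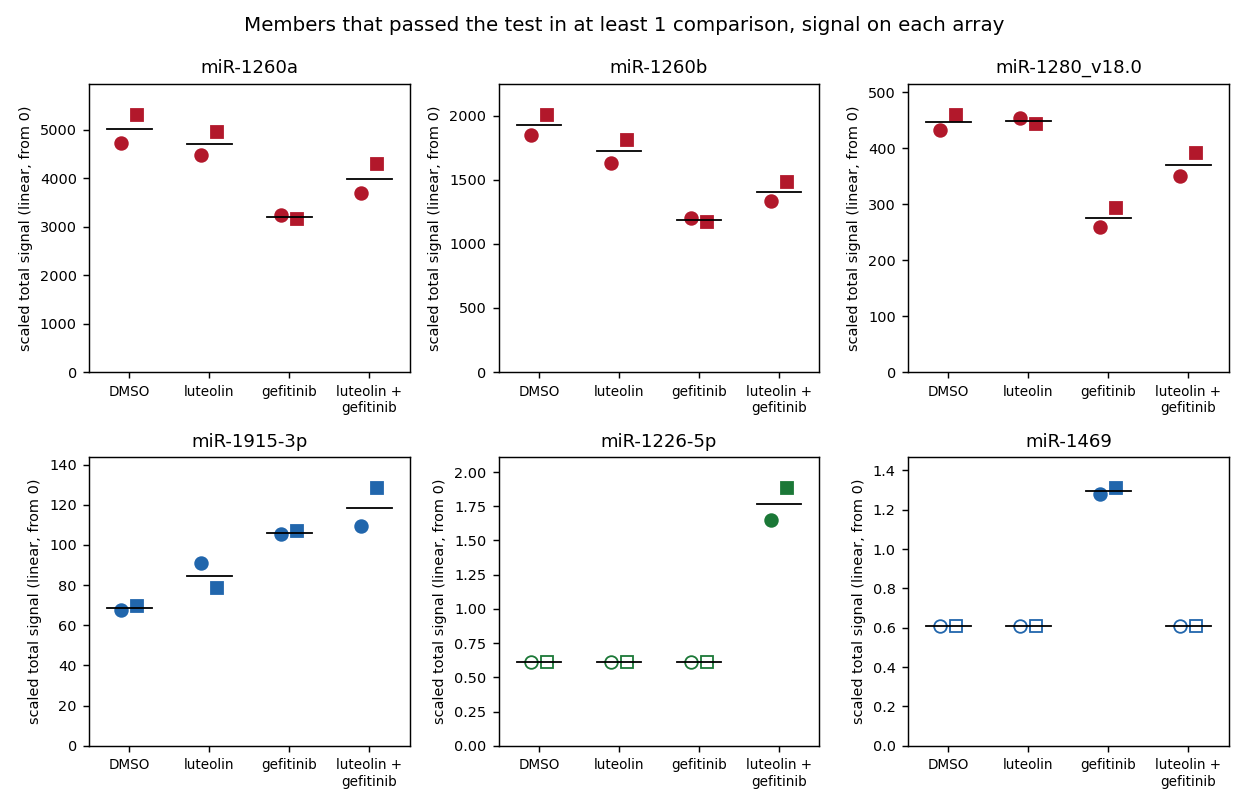
Scaled total signal (linear axis from 0) of the 6 members called in at least 1 comparison, on each of the 8 arrays; circles are replicate 1, squares replicate 2, open symbols arrays where the miRNA was not detected (drawn at the floor of 0.609), and the line is the geometric mean of a group. miR-1260a, miR-1260b and miR-1280_v18.0 are lowest with gefitinib, miR-1915-3p is higher on all drug arrays than on the DMSO arrays, and miR-1226-5p and miR-1469 were each detected in 1 group.

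The remaining structured-RNA members were not called with gefitinib. miR-1246 read 71.5 and 49.6 with DMSO, 62.2 and 33.6 with luteolin, 35.0 and 42.9 with gefitinib and 46.0 and 50.2 with both drugs. Its gefitinib arrays lay below its DMSO arrays (log2 difference -0.62, SE 0.34, adjusted p = 0.380 by limma), while its luteolin arrays spanned from below the gefitinib arrays to between the DMSO arrays. miR-1973 read 239 and 115 with DMSO, 217 and 70.9 with luteolin, 90.1 and 124 with gefitinib and 125 and 84.4 with both drugs, and its groups overlapped throughout (log2 difference with gefitinib -0.65, SE 0.62). miR-1290 read 8.08 and 8.11 with gefitinib, a log2 difference of -0.18 (SE 0.17).

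The structured-RNA class had a median log2 difference of -0.65 with gefitinib, with 6 of 6 members negative, against -0.11 over all 365 miRNAs detected on all arrays, -0.14 in the mirtron block and -0.23 among the other members. miR-1290 turned positive without scaling (0.19) and under quantile normalization (0.04). The scaling itself moved the median of the 365 miRNAs from -0.11 to 0.25 without scaling and 0.06 under quantile normalization. Relative to that median the class stood at -0.54, a value that leaving out the scaling cannot change. It stood at -0.40 under quantile normalization and -0.60 on the mean processed signal with its percentile over all miRNAs, with 6 of 6 members below the median in both. With normexp and quantile normalization it stood at -0.46, with 5 of 6 below. Within the class miR-1260a with miR-1260b and miR-1246 with miR-1290 share sequence, so these 6 members are fewer than 6 independent measurements. The sequence of miR-1280_v18.0 was not compared with the others.

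Both gefitinib arrays lay below both DMSO arrays for 15 of the 24 members detected on all arrays, beside 38.1% of all 365, and above them for 3 (12.5%), beside 20% of all 365. This direction depends on the scaling, since the log2 difference was positive for 4 of 24 members as scaled here, for 10 under quantile normalization and for 16 without scaling. miR-1273g-3p, the member with the most signal, read 5854 and 5462 with DMSO, 6134 and 5587 with luteolin, 3842 and 4661 with gefitinib and 5114 and 5813 with both drugs. Its gefitinib arrays were the lowest (log2 difference -0.42, SE 0.16, adjusted p = 0.188 by limma). miR-1207-5p (log2 difference 0.37), miR-1587 (0.46) and miR-1915-3p were the 3 members whose gefitinib arrays both lay above the DMSO arrays.

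The 4 mirtron-block members detected throughout were called in no comparison. miR-1224-5p read 14.3 and 14.4 with DMSO, 14.5 and 11.9 with luteolin, 13.6 and 13.5 with gefitinib and 12.6 and 13.5 with both drugs, and its log2 differences from DMSO lay between -0.14 and -0.08. miR-1225-5p read 98.5 and 66.1 with DMSO, 92.9 and 52.8 with luteolin, 69.5 and 70.9 with gefitinib and 71.8 and 69.4 with both drugs. The gap within its DMSO and luteolin pairs was larger than any difference between groups. miR-1228-3p lay between 3.45 and 4.91 on all arrays, and its luteolin plus gefitinib arrays held both of these extremes. miR-1234-3p read 6.33 and 7.03 with DMSO, 7.71 and 7.53 with luteolin, 5.47 and 5.82 with gefitinib and 5.03 and 6.77 with both drugs. The luteolin arrays lay above and the gefitinib arrays below the DMSO arrays, by log2 differences of 0.19 and -0.24 (SE 0.18 for each, adjusted p = 0.901 and 0.519 by limma).

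**Figure D3:**
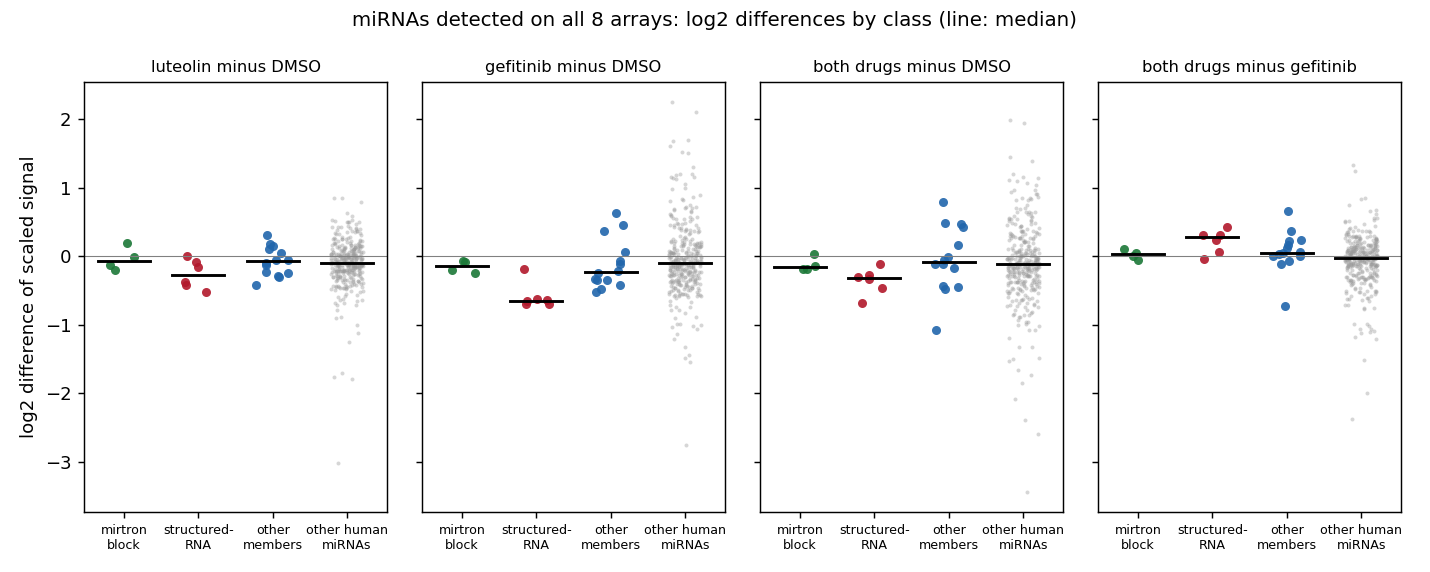
Log2 difference of scaled signal between 2 groups (vertical axis) for the miRNAs detected on all 8 arrays, by class, with 4 members in the mirtron block, 6 in the structured-RNA class, 14 other members and 341 other human miRNAs; each point is 1 miRNA and the line is the class median. The structured-RNA class has its lowest median, -0.65, in gefitinib minus DMSO and a positive median, 0.28, in both drugs minus gefitinib.

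With both drugs, miR-1915-3p, given above, was higher than with DMSO. It was 1 of the 24 members detected on all arrays, called by limma beside 10.4% of the 365 such miRNAs. The fit called 2 of all 33 tested members, beside 12.1% of all miRNAs tested, but the other call, miR-1226-5p, entered the test only through the arrays with both drugs. Without luteolin plus gefitinib replicate 1 the count was 7, of which 5 were lower, with 57 called among all miRNAs. Without either DMSO array, either gefitinib array or luteolin plus gefitinib replicate 2 it was 1, with 14 to 31 called among all.

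miR-1226-5p, the mirtron product that begins at the 5′ splice site of its intron, was detected on both luteolin plus gefitinib arrays, at 1.65 and 1.88, and on none of the other 6. Its total signal there was 3.77 and 3.20 times the scanner's error, so it was close to the limit of detection. The share of its spots well above background was 13.3% on each of these arrays, 10% and 6.67% with gefitinib, 3.33% on luteolin replicate 1 and 0 on the rest. The mean processed signal was 4.68 and 4.61 with both drugs, 3.35 and 2.92 with DMSO, 3.22 and 2.45 with luteolin, and 3.47 and 3.17 with gefitinib. The arrays with both drugs lay above the other 6 on that scale, but the log2 differences were 0.57 from DMSO, 0.73 from luteolin and 0.49 from gefitinib, none of them past the test (adjusted p = 0.0848, 0.106 and 0.314 by limma). With the percentile of the same signal taken over all miRNAs they were 1.06, 0.90 and 0.80, past the test against DMSO and luteolin but not against gefitinib (adjusted p = 0.0058, 0.0369 and 0.0725 by limma). That scaling also moved the median over all miRNAs detected throughout from -0.14 to 0.36 for both drugs against DMSO. The difference from DMSO did not pass on the series table or under normexp and quantile normalization (adjusted p = 0.101 and 0.381 by limma). miR-1226-5p entered the test only through the arrays with both drugs, so its calls say no more than its detection there. No 3p product of the same hairpin was detected.

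Several other members had negative differences with both drugs without passing the test. Under 5 of the alternatives that called more members than here, lower members were 4 of 5 on the mean processed signal and 4 of 7 on the series table. They were 3 of 6 with normexp and quantile normalization, 2 of 4 with a floor of 1, and 2 of 9 on the mean processed signal with its percentile over all miRNAs. The calls among all miRNAs were more numerous there too, at 82, 91, 79, 62 and 101 in the same order, against 58. miR-1972 read 4.90 and 4.07 with DMSO, 3.55 and 1.74 with luteolin, 1.94 and 2.08 with gefitinib, and with both drugs 1.71 on replicate 1 and undetected on replicate 2 (adjusted p = 0.0679 by limma). miR-1285-3p read 2.33 and 3.00 with DMSO and 1.43 on replicate 1 with both drugs, and was likewise undetected on replicate 2 (adjusted p = 0.0820 by limma). The undetected array enters both fits at the floor of 0.609, which sets much of the size of the difference, so no log2 difference is given. Of the 7 members detected on 7 arrays, 6 were missing only on luteolin plus gefitinib replicate 2, the array with the fewest detected miRNAs, and its part in these differences was not tested. miR-1306-3p, whose hairpin lies within the gene of the Microprocessor subunit DGCR8, was detected throughout and read 4.75 and 5.64 with DMSO, 4.76 and 4.93 with luteolin, 4.34 and 3.80 with gefitinib and 3.50 and 1.72 with both drugs. Both arrays with both drugs lay below all others (log2 difference -1.08, SE 0.34, adjusted p = 0.113 by limma), and the gap between them was itself over 2-fold.

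Adding either drug to the other changed none of the 24 members detected on all arrays past the test by limma, against 4 of the 365 such miRNAs when gefitinib was added to luteolin and 8 when luteolin was added to gefitinib. Of the 24, 3 and 2 had an unadjusted p under 0.05 by limma. Over all 33 tested members these counts were 5 and 5, beside 74 and 60 of the 480 miRNAs tested. The methods' t-test after adjustment called 0 and 1 of the 33 tested members, with 1 and 19 called among all miRNAs. The calls among all 33 tested members were miR-1226-5p in the first comparison, beside 1.88% of all miRNAs tested, and miR-1226-5p and miR-1469 in the second, beside 4.58%. Both follow from detection in a single group. On the mean processed signal, with the same floor of 1.17, miR-1469 was not called between both drugs and gefitinib (adjusted p = 0.330 by limma). Without luteolin plus gefitinib replicate 1 the counts were 4 and 4, with 17 and 29 called among all miRNAs. Of the members detected throughout, miR-1268a read 27.2 and 29.5 with DMSO, 33.5 and 30.6 with luteolin, 23.4 and 24.6 with gefitinib and 34.1 and 42.1 with both drugs. The arrays with both drugs were its highest and the gefitinib arrays its lowest (log2 difference 0.66, SE 0.16, adjusted p = 0.108 by limma). miR-1268b, which contains the whole of miR-1268a, read 25.8 and 29.5 with gefitinib and 29.1 and 36.6 with both drugs, and these overlapped.

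Members that were low with gefitinib alone were also compared with the arrays that had luteolin added. Both luteolin plus gefitinib arrays lay above both gefitinib arrays for 9 of 24 members, 5 of them in the structured-RNA class, beside 22.2% of all 365 miRNAs. This direction depends on the processing. The log2 difference was positive for 18 of 24 as scaled here, 3 without scaling and 3 under quantile normalization. On the mean processed signal it was positive for 15, and for 24 with the percentile of that signal over all miRNAs. The class had a median log2 difference of 0.28 between both drugs and gefitinib, which was -0.06 without scaling and -0.11 under quantile normalization. Relative to the median of all 365 miRNAs the class median was 0.30 with or without scaling and 0.26 under quantile normalization. It was 0.42 on the mean processed signal with its percentile over all miRNAs and 0.12 with normexp and quantile normalization. Both comparisons use the same gefitinib arrays, so a class that is low on them is low in the first and high in the second. The difference between the gefitinib effect with and without luteolin, added after the data were seen, was past the test by limma for 0 of the 24 members detected on all arrays and 3 of the 365 such miRNAs, and for 0 of these 24 it had an unadjusted p under 0.05. Among all 33 tested members the fit called miR-1226-5p and miR-1469, beside 3.33% of all miRNAs tested, which again follows from detection in a single group. Their count was 0 without DMSO replicate 1, either gefitinib array or luteolin plus gefitinib replicate 2, with 3 to 6 called among all miRNAs. It was 1 without DMSO replicate 2, luteolin replicate 1 or luteolin plus gefitinib replicate 1, with 8 to 11 called among all. Arrays that lay apart in one direction for a drug alone, and in the opposite direction when it was added to the other drug, were found for 5 of the 24 members and 7.12% of all 365 miRNAs detected throughout.

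The spread between replicates was uneven across the members. The largest mean gaps belonged to miR-1973, miR-1275 and miR-1246, and the smallest to miR-1305, miR-1224-5p and miR-1260b. miR-1973 was 1.05 higher on replicate 1 than on replicate 2 with DMSO and 1.62 higher with luteolin (log2), but 0.46 lower on replicate 1 with gefitinib. miR-1275 read 69.4 and 40.8 with DMSO, 62.3 and 32.2 with luteolin, 39.8 and 45.0 with gefitinib and 42.0 and 36.3 with both drugs, so that the gap within the first groups was larger than any difference between group means. miR-1305, at the other end, lay between 33.3 and 44.4 on all 8 arrays. miR-1202, also among the members with the most signal, lay between 119 and 179. Across the 24 members the gaps of the DMSO and luteolin pairs ran together (r = 0.88, against 0.91 over all 365 miRNAs), whereas those of the DMSO and gefitinib pairs ran opposite (r = -0.54, against -0.13). These correlations are across miRNAs of the same arrays and are given as a description.

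**Figure D4:**
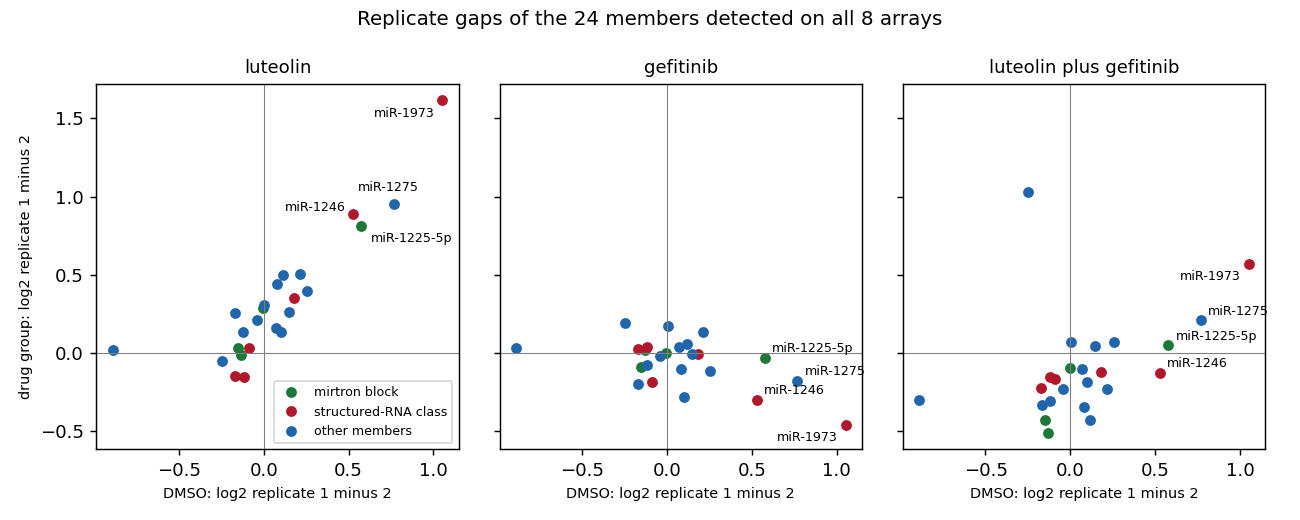
Log2 signal on replicate 1 minus replicate 2 for the 24 members detected on all 8 arrays, with the DMSO gap on the horizontal axis and the gap of luteolin, gefitinib or luteolin plus gefitinib on the vertical axis of the 3 panels; each point is 1 miRNA, coloured by class. miR-1973, miR-1275, miR-1246 and miR-1225-5p have large positive gaps with both DMSO and luteolin (miR-1973: 1.05 and 1.62) and a negative gap with gefitinib.

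The differences from DMSO were also set against base composition. Over the 19 members detected on all arrays that have a sequence, the share of G and C and the log2 difference had r = 0.71 with luteolin, 0.43 with gefitinib and 0.48 with both drugs (rho 0.60, 0.37 and 0.49). Over the 284 other human miRNAs of the same kind these were 0.14, 0.23 and 0.24 (rho 0.08, 0.15 and 0.17). The points share the same arrays, the 3 differences share the DMSO arrays, and the part of composition in the differences above was not tested.

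Seeds were also compared with miRNAs outside the number range. Of the members detected on no array, 4 shared a seed with a miRNA detected on all 8. They were miR-1297 (UCAAGUA, with miR-26a-5p, miR-26b-5p and miR-4465), miR-1271-5p (UUGGCAC, with miR-96-5p), miR-1262 (UGGGUGA, with miR-4701-3p) and miR-1321 (AGGGAGG, with miR-4739). With gefitinib miR-4465 rose by a log2 difference of 0.72 (adjusted p = 0.0331 by limma) and miR-4739 by 0.90 (adjusted p = 0.0499), whereas miR-26a-5p, with the same seed as miR-4465, differed by 0.04 (adjusted p = 0.899). miR-26b-5p, miR-96-5p and miR-4701-3p did not pass the test either.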

How the data were processed

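The deposited files were 1 scanner text file per array and a table of the whole series. The authors labelled total RNA with Cy3 by ligation, hybridised it to a human v18.0 miRNA array and extracted spot intensities with Agilent Feature Extraction (10.7.3.1 per the file headers). From each file the total gene signal was taken, an intensity that the software sums over the probes of a miRNA, with its detected flag. The deposited series table equalled the processed spot intensities (100% of spots within a tolerance of 0.5% plus 0.01) and served as an alternative.

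Signals were divided by each array's 75th percentile over the 365 miRNAs detected on all 8 arrays, brought to the geometric mean of these percentiles (78.3), floored at 0.609 (the median over arrays of the lowest detected scaled signal) and put on the log2 scale. The 480 miRNAs that both arrays of some group detected were fitted with limma 3.58.1 in R 4.3.3 over all 8 arrays (4 residual degrees of freedom, two-sided, Benjamini-Hochberg over 480, threshold 0.05). The procedure was tested on simulated data with known changes. An exact permutation test of 2 against 2 arrays cannot go below p = 0.333 and was not used. The number of arrays limits the precision.

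The members and classes were chosen with earlier results of these data known. The classes come from the annotation of the names as mirtrons or as matching tRNA, snRNA, snoRNA or rRNA. Named members are those called in a comparison, the detected members of the mirtron block and of the structured-RNA class, the 6 detected members with the most signal, the 3 with the largest and 3 with the smallest replicate gaps, and tested pairs sharing a seed. The following were named after their values were seen: miR-1207-5p, miR-1268a, miR-1285-3p, miR-1306-3p, miR-1587, miR-1972 and the miRNAs sharing seeds with undetected members. Alternatives covered the scaling, the signal used, the filter, the floor, the replicate number as a block, each array left out, a fit of the compared groups alone and the methods' t-test with its 2-fold threshold.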

Additional observations from a re-analysis of the deposited data

Results flagged for a closer look

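In 7 members the effects of a drug without and with the other drug met 1 of 2 criteria, a test of the difference past its threshold or arrays that lay apart in opposite directions. The value given is the log2 difference of both drugs from luteolin less that of gefitinib from DMSO. The fit by limma called miR-1226-5p (1.53, adjusted p = 0.0166) and miR-1469 (-1.09, adjusted p = 0.0293), each detected on the arrays of 1 group only and at the floor elsewhere, so these values say no more than the detection. The other 5 did not pass the test, and no difference was shown for them. In miR-1290 (0.58, adjusted p = 0.483 by limma), miR-1268a (0.48, adjusted p = 0.567) and miR-1305 (0.30, adjusted p = 0.802) both gefitinib arrays lay below both DMSO arrays while both arrays with luteolin plus gefitinib lay above both luteolin arrays. In miR-1260b (0.40, adjusted p = 0.580 by limma) and miR-1914-3p (0.46, adjusted p = 0.562), and again in miR-1290, both luteolin arrays lay below both DMSO arrays while both arrays with luteolin plus gefitinib lay above both gefitinib arrays. Such opposite directions were found in 5 of the 24 members detected on all arrays, beside 7.12% of all 365 such miRNAs.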

How the results depend on the processing

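The 10 calls of single members were recomputed under 210 alternatives in all. Of these, 123 kept the call, 87 kept the direction but not the call, and 0 changed direction. The pooled counts include the calls of miR-1226-5p and miR-1469, which entered the test through 1 group each. Those calls were kept under 13 to 15 of 20 alternatives each. The calls of members detected on all arrays were kept under 9 to 12 of 22 each. Counts of members called are given in the order gefitinib against DMSO, both drugs against DMSO, both against luteolin, both against gefitinib, and the gefitinib effect with against without luteolin (5, 2, 1, 2 and 2 as reported); luteolin against DMSO gave 0 throughout. They were 2, 1, 0, 2 and 0 without scaling, 1, 1, 1, 2 and 0 under quantile normalization, 3, 5, 0, 0 and 0 on the mean processed signal, 1, 9, 2, 1 and 0 with its percentile over all miRNAs, 3, 7, 2, 0 and 0 on the series table, and 4, 6, 5, 1 and 1 with normexp and quantile normalization. They were 4, 4, 1, 1 and 0 with a floor of 1, 4, 2, 0, 0 and 0 with 16 added to the signal, 1, 1, 1, 2 and 2 with no filter, 3, 1, 0, 0 and 0 for miRNAs detected on all arrays, and 4, 1, 0, 0 and 0 for those mostly well above background. Fitting the compared groups alone gave 4, 1, 0 and 2, the methods' t-test with adjustment 4, 0, 0 and 1, and at its own thresholds 2, 1, 1 and 3; these have no value for the last result. Leaving out 1 array at a time gave 1 to 5, 1 to 7, 1 to 4, 2 to 4 and 0 to 2. The counts over all miRNAs moved as well: in the same order they were 58, 58, 9, 22 and 16 as reported and ran from 15 to 73, 12 to 101, 0 to 41, 6 to 41 and 0 to 24. The cause of these changes was not tested, except that a filter on detection removes miR-1226-5p and miR-1469.

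The replicate block gave 4, 3, 1, 2 and 2, and lost the gefitinib call of miR-1915-3p. The replicate numbers pair no samples in the labels, and the correlation of replicate gaps over the 24 members ran from -0.58 (luteolin and gefitinib) to 0.88 (DMSO and luteolin). Per the file headers replicate 1 of every group lay in the first row of the slide and replicate 2 in the second, so replicate number and row cannot be told apart. Members near the detection limit, miR-1226-5p and miR-1469, depend on the signal used, with log2 differences of 0.03 for each against DMSO under normexp.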

Other observations

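Detected members that entered no comparison were seen on scattered arrays. miR-1291, from within SNORA2C, read 2.95 on DMSO replicate 1, 2.93 on luteolin replicate 1, 1.62 on gefitinib replicate 2 and 1.58 on luteolin plus gefitinib replicate 1. miR-1307-5p read 1.51, 1.69 and 1.40 on replicate 1 of DMSO, gefitinib and luteolin plus gefitinib, while miR-1307-3p of the same hairpin was detected on all 8 arrays at 1.58 to 3.21. miR-1299 read 1.21 on gefitinib replicate 2 and 1.27 on luteolin plus gefitinib replicate 1, and miR-1238-3p, a mirtron product from ATG4D, read 0.655 on luteolin replicate 1 and 0.518 on gefitinib replicate 1.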
